A study of Mus musculus with 8 samples.

Results

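The 7 genes described here, *Smoc2*, *Fbln2*, *Kcnab2*, *Akr1c18*, *Ano1*, *Nrn1* and *Map2*, were chosen by measured values from the 50600 genes of a mouse count table, namely small p-values or large changes in level between NF1-MET;sgP53 and NF1-MET cells, and they are not among the known targets of p53. The line difference is therefore what selected them. It is given below as a description, without a test, and tests are kept for the response to capmatinib and for genes outside the 7. All 7 passed the filter on low counts, as did 14497 genes in all, and none was among the 30 p53 target genes listed for comparison. The selection had no numeric limit, so no gene stands just inside or outside it.

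NF1-MET is a cell line from a malignant peripheral nerve sheath tumor (MPNST) of a mouse with the alleles Plp-creERT tg/+, Nf1 fl/ko and lox-stop-loxMET tg/+, in which the *Plp* promoter drives an inducible Cre recombinase. The study's text adds that *Met* is amplified and *Cdkn2a* deleted in it, which both lines share. NF1-MET;sgP53 cells, called sgP53 cells here, came from NF1-MET cells by lentiviral CRISPR-Cas9 with a guide to exon 4 of *Trp53*, and whether they are a clone or a pool is not stated in the sources used here. Their genotype label is Trp53 KO, and that of NF1-MET is WT. Cells of each line were kept for 24 h in vehicle (DMSO) or in 100 nM capmatinib, an inhibitor of the MET kinase, with 2 replicate libraries in each of the 4 groups. The methods call the treatments duplicates, and no source used here says that these were independent cultures, so p-values measure the spread between these samples, which may be technical. Each genotype is 1 line, and the loss of p53 cannot be told apart from other differences between the lines. The column names of the NF1-MET libraries hold the letters EV. The study's methods name NF1-MET cells with an empty vector as a control, and whether the sequenced NF1-MET cells were these is not stated.

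p53 is a transcription factor that binds DNA at response elements and raises the transcription of genes for cell cycle arrest, repair and apoptosis. MET is the receptor tyrosine kinase for hepatocyte growth factor and signals through RAS and ERK and through PI3K and AKT. *Smoc2* and *Fbln2* encode secreted proteins of the extracellular matrix, *Ano1* and *Kcnab2* encode a chloride channel and a subunit of potassium channels, *Akr1c18* encodes a steroid-metabolizing enzyme, and *Nrn1* and *Map2* encode proteins best known from neurites and dendrites of neurons.

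Levels are given in CPM, the counts of a gene per M counts of a library, after TMM scaling, which corrects for the makeup of each library. Totals ran from 30.1 to 42.8 M counts with a median of 36.5 M. *Gm42418*, a gene that overlaps ribosomal RNA, held 1.11% to 13.1% of the counts, least in a sgP53 library with capmatinib. In NF1-MET cells *Trp53* transcript was at 182 and 193 CPM under vehicle and at 126 and 128 under capmatinib. In sgP53 cells it was at 97.5 and 100.1 CPM under vehicle and at 68.0 and 68.8 under capmatinib. It was lower in sgP53 cells in every library of either treatment, as the labels would have it. In bulk RNA, fewer cells that express a gene and less RNA per cell cannot be told apart.

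The promoters of genes whose levels turn on the line or on capmatinib are shown first, as RefSeq gives them for GRCm38.p6, from 250 bases before to 50 after a transcription start, 5′ to 3′ on the gene's strand. RefSeq's table held 5 of the 7 genes, with 3 starts for *Kcnab2*. The start it gives for *Ano1* lies inside the gene as GENCODE M21 draws it, not at its 5′ end. The internal start of *Kcnab2*, the gene with the widest line difference of the 7, is shown because it is the only window of the 5 genes with a match to the 10-base motif that makes up one arm of a p53 response element. *Akr1c18* and *Ano1* are shown because both fell with capmatinib, and *Fbln2* and *Map2* because both rose. Capitals mark that p53 motif in the *Kcnab2* window and the GC box (GGGCGG on either strand) in the others.
Kcnab2, internal start, chr4:152452896-152453195 (-): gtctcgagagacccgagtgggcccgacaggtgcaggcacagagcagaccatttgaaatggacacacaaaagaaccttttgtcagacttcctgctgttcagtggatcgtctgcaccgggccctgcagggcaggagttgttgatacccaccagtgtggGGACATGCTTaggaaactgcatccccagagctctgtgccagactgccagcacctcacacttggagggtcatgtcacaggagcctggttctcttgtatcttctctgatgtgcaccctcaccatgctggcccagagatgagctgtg
Akr1c18, chr13:4150597-4150896 (-): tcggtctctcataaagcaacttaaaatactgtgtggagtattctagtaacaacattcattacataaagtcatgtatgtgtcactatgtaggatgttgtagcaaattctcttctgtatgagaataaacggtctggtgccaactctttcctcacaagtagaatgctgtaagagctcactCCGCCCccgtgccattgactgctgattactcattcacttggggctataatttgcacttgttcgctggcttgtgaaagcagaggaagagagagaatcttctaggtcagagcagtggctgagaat
Ano1, start inside the gene, chr7:144738524-144738823 (-): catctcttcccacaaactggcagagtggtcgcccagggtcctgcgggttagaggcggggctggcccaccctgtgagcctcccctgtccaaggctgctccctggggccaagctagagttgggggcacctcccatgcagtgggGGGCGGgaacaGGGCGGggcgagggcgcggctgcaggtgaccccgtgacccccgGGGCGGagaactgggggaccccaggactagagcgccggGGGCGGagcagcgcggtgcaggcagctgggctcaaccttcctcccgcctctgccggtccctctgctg
Fbln2, chr6:91212514-91212813 (+): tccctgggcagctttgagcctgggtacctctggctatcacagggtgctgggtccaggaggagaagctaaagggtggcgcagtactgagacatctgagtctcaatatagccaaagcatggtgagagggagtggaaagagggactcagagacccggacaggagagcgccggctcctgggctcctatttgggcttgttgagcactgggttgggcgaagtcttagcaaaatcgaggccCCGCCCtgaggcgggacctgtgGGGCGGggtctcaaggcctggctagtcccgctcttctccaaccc
Map2, chr1:66175079-66175378 (+): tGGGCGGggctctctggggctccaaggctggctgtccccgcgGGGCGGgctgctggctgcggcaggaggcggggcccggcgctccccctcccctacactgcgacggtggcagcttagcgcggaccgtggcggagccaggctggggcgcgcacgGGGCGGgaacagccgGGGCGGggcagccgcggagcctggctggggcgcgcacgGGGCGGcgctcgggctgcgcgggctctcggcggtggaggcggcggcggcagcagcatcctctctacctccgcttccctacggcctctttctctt

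The p53 motif of *Kcnab2* begins 94 bases before its internal start, and 8.36% of 32851 promoters of this length hold such a match on either strand. The GC box, a binding sequence of SP1-like factors, occurs 4 times in the *Ano1* window and 5 times in that of *Map2*. It occurs 2 times in that of *Fbln2* and once in that of *Akr1c18*, against 35.7% of promoters with at least 1. Of the *Kcnab2* windows, that at chr4:152477500-152477799, which is not shown, held 2, and the others held 0. *Akr1c18* and *Ano1*, which both fell with capmatinib, have windows of 42.3% and 71.7% G and C, at the 14.9th and 92.6th percentile of all promoters. No window of the 5 genes held a TATA box (TATAAA, 13.6% of promoters), an AP-1 motif (TGANTCA, 7.81%) or a cAMP response element (TGACGTCA, 1.79%), each searched on both strands. These are matches of letters, and binding was not measured.

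*Smoc2* (ENSMUSG00000023886, mm10 chromosome 17, 14279506 to 14404790, plus strand) encodes SPARC-related modular calcium-binding protein 2, a matricellular protein. It was at 206 and 203 CPM in NF1-MET cells with vehicle and 117 and 123 CPM with capmatinib. The sgP53 cells had 77.8 and 79.6 CPM with vehicle and 58.6 and 58.0 CPM with capmatinib. All libraries of sgP53 cells lay below all those of NF1-MET cells, and each group stood clear of the next in the order of levels. The level was 2.63-fold lower in sgP53 cells in vehicle (log2 difference -1.39, SE 0.03) and 2.06-fold lower in capmatinib (log2 difference -1.04, SE 0.0324).

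*Fbln2* (ENSMUSG00000064080, chromosome 6, 91212455 to 91272540, plus strand) encodes fibulin-2, a matrix glycoprotein of basement membranes and elastic fibers. NF1-MET cells had 87.9 and 87.3 CPM of it under vehicle and 248 and 247 CPM under capmatinib. It was 223 and 218 CPM in sgP53 cells with vehicle and 441 and 446 CPM with capmatinib. Vehicle-treated sgP53 cells thus stood slightly below capmatinib-treated NF1-MET cells, without overlap. The level was 2.48-fold higher in sgP53 cells in vehicle (log2 difference 1.31, SE 0.0289) and 1.8-fold higher in capmatinib (log2 difference 0.85, SE 0.0266), opposite in sign to *Smoc2*.

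*Kcnab2* (ENSMUSG00000028931, chromosome 4, 152390742 to 152477871, minus strand) encodes a cytoplasmic beta subunit of Shaker-type voltage-gated potassium channels with the fold of an aldo-keto reductase. It had 70 and 65 counts in NF1-MET cells with vehicle and 72 and 88 with capmatinib, or 1.93, 1.63, 2.60 and 2.29 CPM. In sgP53 cells it had 545 and 721 counts with vehicle and 581 and 546 with capmatinib, or 15.9, 16.9, 16.5 and 15.1 CPM. The lines were far apart, whereas vehicle and capmatinib overlapped in sgP53 cells. The level was 9.11-fold higher in sgP53 cells in vehicle (log2 difference 3.19, SE 0.111) and 6.5-fold higher in capmatinib (log2 difference 2.70, SE 0.11). By size this was the widest line difference in either treatment among the genes with at least 10 CPM in the higher group (8621 in vehicle and 8750 in capmatinib). *Kcnab2* met that limit only through sgP53 cells. Over all genes tested it was 30th of 14484 in vehicle and 16th of 14481 in capmatinib.

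*Akr1c18* (ENSMUSG00000021214, chromosome 13, 4132615 to 4150654, minus strand) encodes 20-alpha-hydroxysteroid dehydrogenase, which inactivates progesterone. It was at 95.3 and 88.9 CPM in NF1-MET cells with vehicle but at 3.98 and 4.69 CPM with capmatinib. In sgP53 cells it was at 27.9 and 27.3 CPM with vehicle and 2.07 and 1.63 CPM with capmatinib, the last 2 values resting on 73 and 59 counts. Both lines thus held little of this transcript in capmatinib, and sgP53 cells were the lower in either treatment without overlap. The level was 3.39-fold lower in sgP53 cells in vehicle (log2 difference -1.76, SE 0.0413) and 2.36-fold lower in capmatinib (log2 difference -1.24, SE 0.175).

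*Ano1* (ENSMUSG00000031075, chromosome 7, 144588549 to 144751974, minus strand) encodes anoctamin-1, a calcium-activated chloride channel. It was at 132.7 and 132.5 CPM in NF1-MET cells with vehicle and 22.7 and 23.5 CPM with capmatinib. In sgP53 cells it was at 53.6 and 52.4 CPM with vehicle and 10.5 and 8.76 CPM with capmatinib. The order of the 4 groups was that of *Akr1c18*'s, except that NF1-MET cells with capmatinib stood relatively nearer to sgP53 cells with vehicle. The level was 2.54-fold lower in sgP53 cells in vehicle (log2 difference -1.34, SE 0.0322) and 2.4-fold lower in capmatinib (log2 difference -1.27, SE 0.0784).

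*Nrn1* (ENSMUSG00000039114, chromosome 13, 36725361 to 36735131, minus strand) encodes neuritin, a GPI-anchored protein that promotes neurite outgrowth. It was at 134 and 125 CPM in NF1-MET cells with vehicle and 110.7 and 110.6 CPM with capmatinib. The level in sgP53 cells was 58.0 and 59.2 CPM with vehicle and 71.6 and 71.5 CPM with capmatinib. Vehicle libraries were thus the higher ones in NF1-MET cells and the lower ones in sgP53 cells. The level was 2.24-fold lower in sgP53 cells in vehicle (log2 difference -1.16, SE 0.0361) and 1.55-fold lower in capmatinib (log2 difference -0.63, SE 0.0287). Exons of *Fars2* on the opposite strand cover 22.3% of the exon bases of *Nrn1*, and since the strand setting of the counting is not stated, reads of the 2 genes cannot be told apart there. *Fars2*, a mitochondrial tRNA synthetase gene, was at means of 10.5 to 11.9 CPM, with line differences of 0.01 in vehicle (adjusted p = 0.944) and 0.17 in capmatinib (adjusted p = 0.193, both by the quasi-likelihood test of edgeR, Benjamini-Hochberg adjusted).

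*Map2* (ENSMUSG00000015222, chromosome 1, 66175273 to 66442583, plus strand) encodes microtubule-associated protein 2, a stabilizer of dendritic microtubules. It was at 21.8 and 21.0 CPM in NF1-MET cells with vehicle and 51.7 and 51.8 CPM with capmatinib. The sgP53 cells had 25.6 and 27.1 CPM with vehicle and 81.4 and 81.9 CPM with capmatinib. The lines were close in vehicle and well apart in capmatinib. The level was 1.22-fold higher in sgP53 cells in vehicle (log2 difference 0.29, SE 0.0579) and 1.58-fold higher in capmatinib (log2 difference 0.66, SE 0.0341).

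**Figure D1:**
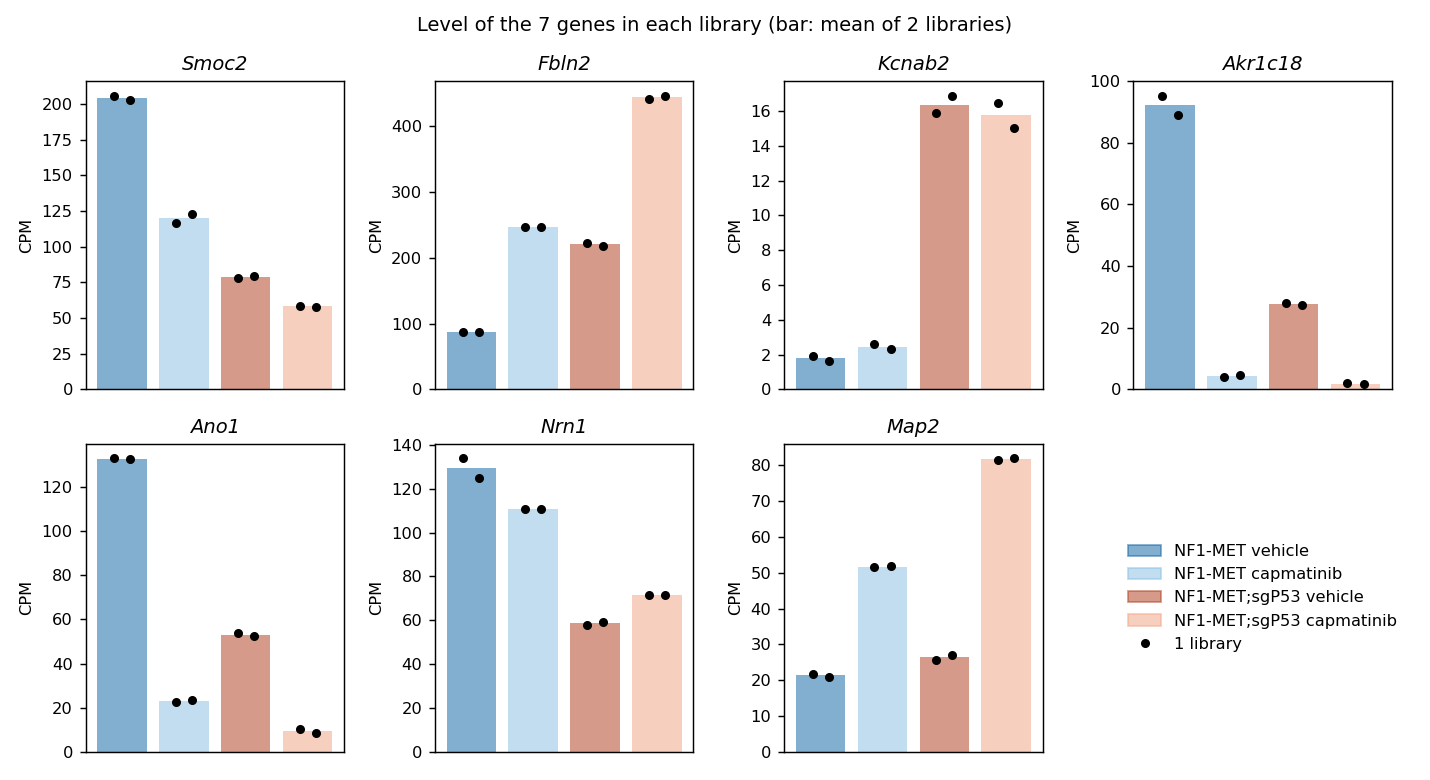
CPM of each of the 7 genes (vertical axis, from 0, a scale for each gene) in the 4 groups, with a point for each library and a bar for the mean of 2 libraries. *Kcnab2* separates by line, with 1.63 to 2.60 CPM in NF1-MET and 15.1 to 16.9 CPM in sgP53 cells, while *Akr1c18* and *Ano1* separate by treatment as well as by line.

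Per kb of exon, the only scale on which levels of different genes were set side by side, *Akr1c18* stood highest in NF1-MET cells with vehicle at 76.3 CPM per kb, ahead of *Nrn1* at 57.5. *Kcnab2* stood lowest there at 0.319 CPM per kb, below *Map2* at 1.30. In sgP53 cells with capmatinib *Fbln2* stood highest at 69.7 CPM per kb, and *Akr1c18* lowest at 1.53 beside *Ano1* at 1.54.

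In vehicle, 2 of the 7 genes were higher and 4 lower in sgP53 cells by at least 1 on the log2 scale, against 2.53% and 1.73% of the 14484 genes tested. In capmatinib it was 1 higher and 3 lower, against 1.56% and 1.33% of 14481 genes. The libraries of the lines did not overlap for any of the 7 genes in either treatment, which was also so for 60.5% of all genes in vehicle and 52.3% in capmatinib. Nothing is read from these counts, since the same values chose the genes. Ordered by size among genes with at least 10 CPM in the higher group, *Akr1c18* was 11th, *Smoc2* 20th, *Ano1* 24th, *Fbln2* 25th, *Nrn1* 33rd and *Map2* 745th in vehicle, and in capmatinib *Ano1* was 12th, *Smoc2* 19th, *Fbln2* 33rd, *Map2* 59th and *Nrn1* 63rd. All 7 kept their sign between treatments, with the size of the difference smaller in capmatinib for 6 genes and larger for *Map2*.

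**Figure D2:**
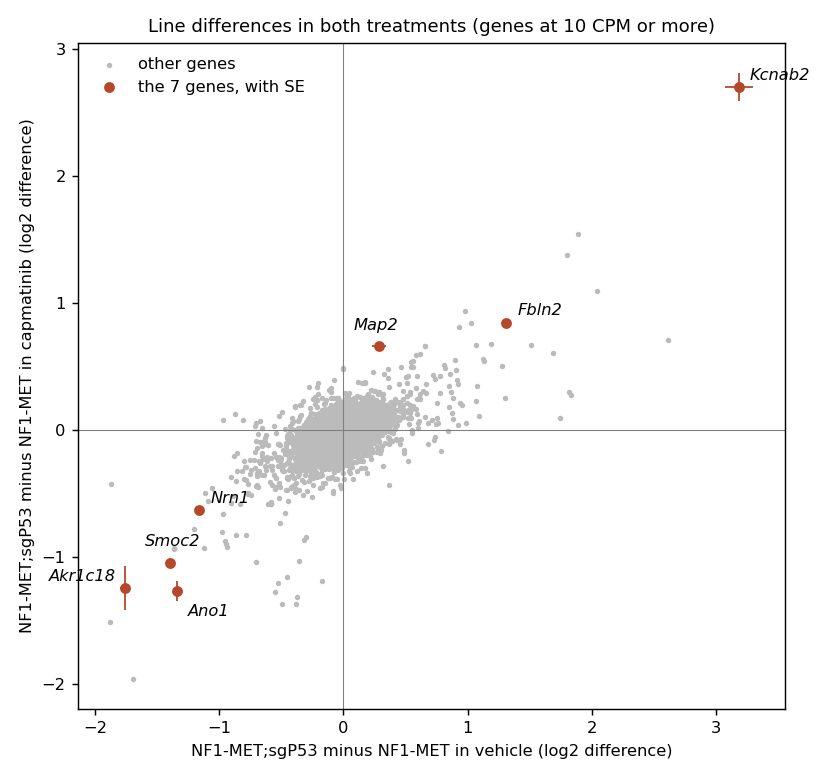
Log2 difference between sgP53 and NF1-MET cells in vehicle (horizontal axis) and in capmatinib (vertical axis), with SE for the 7 genes in red and 8294 other genes with at least 10 CPM in grey. *Kcnab2* lies at 3.19 and 2.70, away from the other genes, and *Map2* at 0.29 and 0.66.

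The response to capmatinib was tested across all genes, with the line as a covariate over the 8 libraries. It does not use the difference between the lines, but the responses within each line share their libraries with the line differences above. Over both lines 5 of the 7 genes changed, 2 higher and 3 lower, beside 73.7% of the 14497 genes tested, with 38% higher and 35.8% lower, so a share of this size is that of genes at large. By TMM 5506 genes were higher and 5183 lower, and by library totals 3972 and 6501, with the median of all genes at -0.15. *Akr1c18* had a log2 change of -4.23 (SE 0.0832, adjusted p = 7.22e-14), 18.8-fold lower, with all 4 capmatinib libraries below all 4 of vehicle. *Ano1* changed by -2.49 (SE 0.0417, adjusted p = 1.67e-14), and these were the 89th and 461st largest changes by size. *Map2* rose by 1.46 (SE 0.0584, adjusted p = 5.3e-11) and *Fbln2* by 1.24 (SE 0.0725, adjusted p = 2.48e-09). *Smoc2* had a change of -0.61 (SE 0.0538, adjusted p = 1.95e-07), and the ranges of the treatments overlapped across the lines. For *Kcnab2* and *Nrn1* the differences were 0.05 (SE 0.091, adjusted p = 0.65) and 0.02 (SE 0.0769, adjusted p = 0.84), all from edgeR's quasi-likelihood test. With library totals *Nrn1* was at -0.14 (adjusted p = 0.0243 by the same test), opposite in sign and past the threshold.

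Within NF1-MET cells all 7 genes passed the threshold, 3 higher and 4 lower, beside 70.2% of all genes tested (35.5% higher, 34.7% lower). Library totals gave 3508 genes higher and 6381 lower in place of 5140 and 5029. *Akr1c18* was 21.2-fold lower with capmatinib, *Ano1* 5.79-fold lower and *Smoc2* 1.72-fold lower, while *Fbln2* was 2.79-fold and *Map2* 2.39-fold higher, at adjusted p from 1.53e-32 (*Akr1c18*) to 6.92e-21 (*Map2*). *Nrn1* had a log2 change of -0.24 (SE 0.0314, adjusted p = 3.94e-08), or -0.43 with library totals (adjusted p = 8.62e-13). *Kcnab2* changed by 0.44 (SE 0.193, adjusted p = 0.0458), a call that was lost in 7 of 13 alternatives, with adjusted p up to 0.267. Among them were fits without vehicle replicate 2 (0.33) or without capmatinib replicate 1 (0.37), which also took in the sgP53 libraries. All of these come from edgeR's quasi-likelihood test, except for 1 alternative by DESeq2.

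Within sgP53 cells 6 of the 7 genes passed the threshold, 3 higher and 3 lower, beside 67.6% of all genes tested (34.2% higher, 33.4% lower). Library totals gave 3260 genes higher and 4933 lower in place of 4963 and 4841. *Akr1c18* was 14.9-fold lower, *Ano1* 5.51-fold lower and *Smoc2* 1.35-fold lower with capmatinib, and *Map2* was 3.09-fold and *Fbln2* 2.01-fold higher, at adjusted p of 1.33e-10 for *Smoc2* and from 2.49e-19 to 3.72e-18 for the others. *Nrn1* had a log2 change of 0.29 (SE 0.0342, adjusted p = 1.36e-07), and with library totals in place of TMM the value was 0.16 (adjusted p = 0.168, both from edgeR's quasi-likelihood test). *Kcnab2* stood at -0.06 (SE 0.0733, adjusted p = 0.512). It was at -0.18 with library totals, with an adjusted p of 0.194, or of 0.0353 where *Gm42418* was left out of the totals, again from edgeR.

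The difference between the responses of the lines equals the difference between the line differences, from which the genes were chosen, and was not tested. Taken as sgP53 minus NF1-MET on the log2 scale, the line difference in capmatinib exceeded that in vehicle by 0.53 for *Nrn1*, 0.52 for *Akr1c18*, 0.37 for *Map2*, 0.35 for *Smoc2* and 0.08 for *Ano1*. For *Fbln2* it was -0.47 and for *Kcnab2* -0.49.

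**Figure D3:**
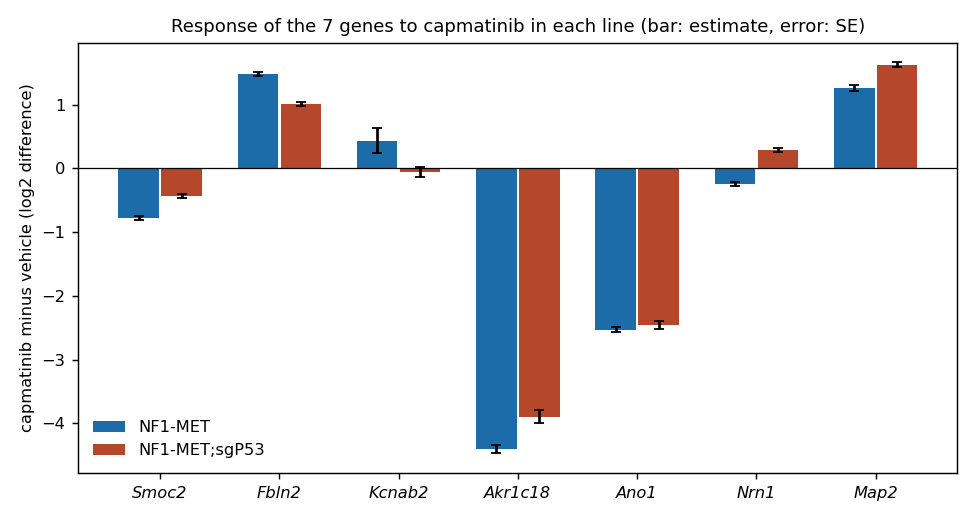
Log2 difference between capmatinib and vehicle for each of the 7 genes in NF1-MET cells (blue) and in sgP53 cells (red), with SE. *Akr1c18* and *Ano1* fell by over 2 in both lines, and *Nrn1* stands at -0.24 in NF1-MET and 0.29 in sgP53 cells.

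The relatives of the 7 genes were examined by lists of their families, tested over all genes between the lines. Among all genes tested, 23.2% passed the threshold in vehicle, 10.9% higher and 12.3% lower in sgP53 cells, and 12.3% in capmatinib, 5.94% higher and 6.34% lower. Of 7 other SPARC, SMOC and testican genes, 4 were measured well enough to test. In vehicle 1 was higher and 1 lower, and in capmatinib 3 were lower (1 by DESeq2 and 2 with library totals). Without *Gm42418* in the totals 1 was higher and 3 were lower in capmatinib. The medians were -0.25 and -0.31, beside 0.0024 and -0.001 over all genes. *Sparcl1*, a matricellular relative of *Smoc2*, fell between the lines from 114 to 54.1 CPM in vehicle (log2 difference -1.09, adjusted p = 6.75e-15) and from 61.6 to 41.8 CPM in capmatinib (-0.56, adjusted p = 5.51e-08). *Fstl1* was higher by 0.27 in vehicle (adjusted p = 1.05e-08) and lower by a difference of -0.06 in capmatinib (adjusted p = 0.0205), which became 0.06 with library totals. *Sparc*, the founding member with 1897 CPM in NF1-MET and 1943 CPM in sgP53 cells under vehicle, had a difference of 0.02 (adjusted p = 0.602, all from edgeR's quasi-likelihood test).

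All 7 other fibulins and fibulin relatives were tested, with 3 higher and 0 lower in sgP53 cells under vehicle, and 0 were also lower at an unadjusted p under 0.05 by edgeR and by DESeq2. In capmatinib 1 was higher and 1 lower. The medians were 0.2 in vehicle and -0.024 in capmatinib. *Efemp1* and *Fbln5*, genes of elastic fiber assembly, were higher in vehicle by 0.38 (adjusted p = 8.93e-10) and 0.36 (adjusted p = 5.66e-09), and *Efemp2* by 0.20 (adjusted p = 3.6e-05). In capmatinib *Fbln5* had a difference of -0.11 (adjusted p = 0.00347), which was 0.01 with library totals, and *Efemp1* one of 0.12 (adjusted p = 0.00687). Neither passed with library totals. Without *Gm42418* in the totals the list again had 1 higher and 1 lower. Against vehicle, 5 of these 7 genes rose with capmatinib over both lines, beside 38% of all genes, *Fbln5* by 2.43 (adjusted p = 4.71e-12, all from edgeR's quasi-likelihood test), and 0 fell by this test, by DESeq2 or at an unadjusted p under 0.05. With library totals without *Gm42418* 1 fell.

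Of 9 other Shaker channel and beta subunit genes, 4 were tested. *Kcnab1*, which encodes another beta subunit, was lower in sgP53 cells in vehicle, at 22.4 against 34.6 CPM (log2 difference -0.65, adjusted p = 1.71e-08), opposite in sign to *Kcnab2*. In capmatinib its difference was -0.23 (adjusted p = 0.0905), and 0 of the 4 passed by edgeR or DESeq2, with 1 at an unadjusted p under 0.05. The *Kcna* genes of the list, which encode the pore-forming alpha subunits, had at most 36 counts in any library.

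Of 16 other aldo-keto reductases, 8 were tested, and 2 were lower in vehicle, with medians of -0.11 in vehicle and -0.024 in capmatinib. *Akr1c14*, a neighbor of *Akr1c18* on the chromosome and a 3-alpha-hydroxysteroid dehydrogenase, was lower in sgP53 cells by a difference of -0.22 in vehicle (adjusted p = 0.00291) and -0.33 in capmatinib (adjusted p = 2.77e-05). With capmatinib it rose by 0.64 (adjusted p = 6.93e-09), where *Akr1c18* fell. *Akr1b8* had differences of -0.12 in vehicle (adjusted p = 0.0253) and 0.13 in capmatinib (adjusted p = 0.0484). With library totals 0 of the 8 passed in either treatment, and by DESeq2 1 was lower in each. Of the 50-base stretches in *Akr1c18* transcripts, 0.608% also occur in another gene, most of them in *Akr1cl*, which had at most 2 counts in a library.

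Of 9 other anoctamins, 3 were tested, and *Ano6*, a phospholipid scramblase gene, and *Ano8* were lower in vehicle by differences of -0.20 (adjusted p = 4.18e-06) and -0.13 (adjusted p = 0.00424). With library totals 0 passed in vehicle, or 2 where *Gm42418* was left out of the totals, and by DESeq2 1. In capmatinib 0 of the 3 passed by edgeR or DESeq2, with 1 at an unadjusted p under 0.05. *Ano6* was at 399 CPM in NF1-MET and 353 CPM in sgP53 cells under vehicle.

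Of 11 genes for a second neuritin and for activity-regulated transcripts of neurons, 10 were tested. In vehicle 2 of them were higher and 3 lower. In capmatinib 1 was higher and 6 were lower, or 1 and 0 with library totals. Without *Gm42418* in the totals it was again 1 and 6. The neuronal pentraxins moved in opposite directions. *Nptx2* was at 24.6 CPM in sgP53 and 6.52 CPM in NF1-MET cells in vehicle (log2 difference 1.89, adjusted p = 3.88e-13) and 1.54 higher in capmatinib (adjusted p = 7.74e-10). *Nptx1* was at 16.4 against 39.6 CPM in vehicle (log2 difference -1.30, adjusted p = 1.75e-12), and under 1 CPM in either line with capmatinib. The immediate early genes *Egr1* and *Nr4a1* were lower in vehicle by differences of -0.37 (adjusted p = 8.66e-10) and -0.44 (adjusted p = 1.7e-08), and in capmatinib by -0.30 (adjusted p = 1.91e-07) and -0.16 (adjusted p = 0.000453). *Nrn1l*, the other neuritin, had no counts in any library.

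Of 11 other structural microtubule-associated proteins, 8 were tested. In vehicle 4 were higher and 2 lower. It was 2 and 1 with library totals, 4 and 2 where *Gm42418* was left out of the totals, and 2 and 2 by DESeq2. *Map1a* was lower by a difference of -0.25 (adjusted p = 1.38e-06) and *Map6* higher by 0.16 (adjusted p = 0.00233). *Map7d1* was at -0.14 (adjusted p = 0.000341) and *Map1s* at 0.12 (adjusted p = 0.0364, all by edgeR). In capmatinib, where *Map2* differed more, 0 of the 8 passed by edgeR or DESeq2 and 3 had an unadjusted p under 0.05. *Mapt*, which encodes tau, had at most 6 counts in a library.

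**Figure D4:**
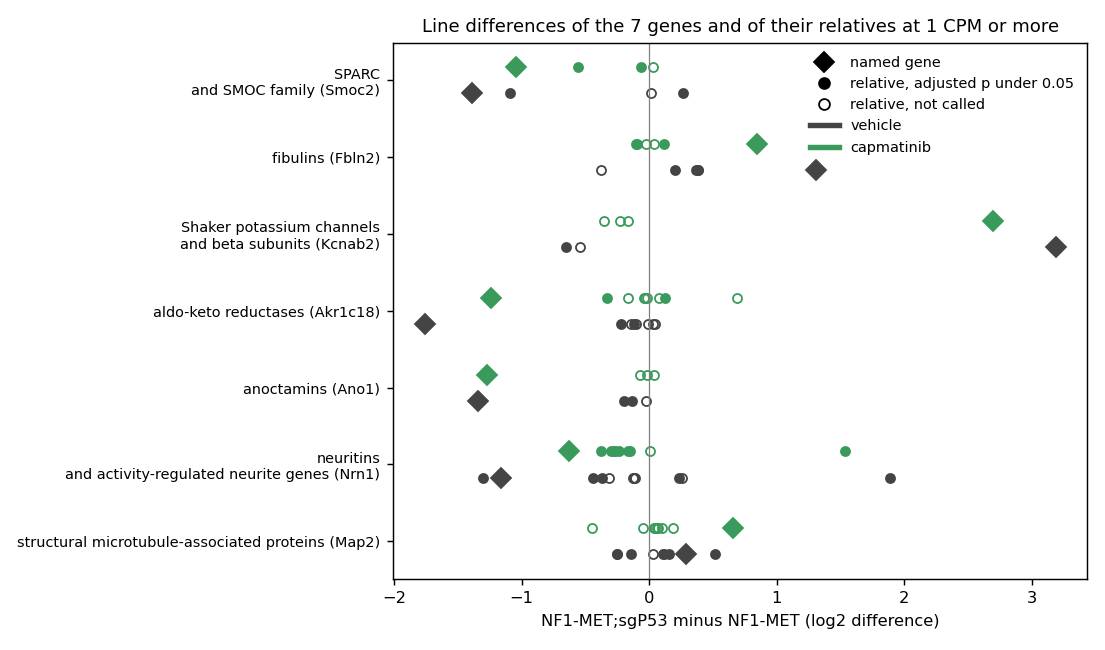
Log2 difference between sgP53 and NF1-MET cells for the 7 genes (diamonds) and for the tested relatives with at least 1 CPM (circles, filled where the adjusted p was under 0.05), by family, in vehicle (dark) and capmatinib (green). *Kcnab2* at 3.19 stands opposite to *Kcnab1* at -0.65, and *Sparcl1* at -1.09 lies near *Smoc2* at -1.39.

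Genes of neurons other than *Map2* and *Nrn1* were set beside both. Of 19, 10 were tested. Between the lines 1 was higher and 5 were lower under vehicle, and under capmatinib 1 was higher and 2 lower. With library totals 1 was higher and 2 lower under vehicle and 1 each way under capmatinib, and DESeq2 gave 1 and 4, then 0 and 1. Leaving *Gm42418* out of the totals gave 1 and 5, then 1 and 2. *Stmn2* was lower by a difference of -0.84 in vehicle (adjusted p = 1.16e-06) and -0.58 in capmatinib (adjusted p = 1.42e-05). *Nefl* and *Tubb3*, both markers of neurons, had -0.60 (adjusted p = 7.19e-11) and -0.27 (adjusted p = 0.00142) in vehicle, and neither passed in capmatinib. *Dlg4* had -0.18 in vehicle (adjusted p = 0.000383). The defining neuron genes *Dcx* and *Elavl4* had no counts, and *Rbfox3* at most 1. The summed level of the list was 446 to 452 CPM in NF1-MET and 397 to 403 CPM in sgP53 cells in vehicle, and 341 to 342 and 335 to 336 CPM in capmatinib. Its part in the levels of *Nrn1* and *Map2* was not tested.

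The labels name the cells as MPNST, a tumor of the peripheral nerve sheath. Of 14 Schwann cell and neural crest markers, 5 were at 1 CPM or more, among them *Pmp22* and *Gap43*, and the defining *Sox10* had at most 7 counts and *Ngfr* 5. Of the 9 tested, 3 were higher in sgP53 cells and 1 lower under vehicle, and under capmatinib it was 1 each way. DESeq2 called 1 higher and 0 lower under vehicle and 1 and 0 under capmatinib, and library totals left 0 each way under capmatinib. Where *Gm42418* was left out of the totals, it was again 1 each way. The list summed to 65.3 to 67.6 CPM in NF1-MET and 72.6 to 77.4 CPM in sgP53 cells in vehicle, and to 185 to 189 and 189 to 195 CPM in capmatinib. The 8 mesenchymal markers, with *Col1a1* and *Vim*, were all tested. Under vehicle 5 were higher in sgP53 cells and 3 lower, and under capmatinib 3 and 1. Library totals gave 4 and 0 under vehicle and 2 and 0 under capmatinib, where *Vim* went from -0.06 to 0.05 (adjusted p = 0.775 from edgeR). Leaving *Gm42418* out of the totals gave 5 and 3, then 4 and 1. DESeq2 gave 4 and 2, then 2 and 0. The mesenchymal list summed to 10200 CPM in NF1-MET and 10700 CPM in sgP53 cells in vehicle, without overlap of the lines. In capmatinib it summed to 24600 to 24800 and 24800 CPM. Epithelial, endothelial and immune lists summed to at most 0.727, 0.358 and 1.93 CPM. The part of these lists in the results was not tested.

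Genes that start within 500 kb of the start of 1 of the 7 were examined as well. Of 111 annotated, 35 were tested, all near *Smoc2*, *Fbln2*, *Kcnab2*, *Akr1c18* or *Ano1*, and none near *Nrn1* or *Map2*. *Fars2*, whose exons overlap those of *Nrn1*, starts farther away and is not among them. In vehicle 1 was higher and 10 lower in sgP53 cells, 31.4% in all against 23.2% of all genes, and with library totals it was 1 and 2. In capmatinib 0 were higher and 6 lower, 17.1% against 12.3%, with 0 higher by DESeq2 as well and 3 at an unadjusted p under 0.05. With library totals 1 was higher and 0 lower in capmatinib. The medians were 0.024 and -0.043. The 1 higher neighbor was *Nphp4*, 1.2 kb from the start of *Kcnab2*, at 2.21 against 1.38 CPM (log2 difference 0.66, adjusted p = 0.0436), named after its value was seen. DESeq2 called 0 neighbors higher and 7 lower in vehicle, and 0 and 5 in capmatinib. In capmatinib the difference of *Nphp4* was 0.44 (adjusted p = 0.187 by edgeR). *Thbs2*, which encodes the matrix protein thrombospondin-2 and begins 414.7 kb from the start of *Smoc2*, was at 328 CPM in sgP53 and 463 CPM in NF1-MET cells in vehicle (log2 difference -0.52, adjusted p = 3.87e-11) and had a difference of -0.11 in capmatinib (adjusted p = 0.0158). No other neighbor that passed the threshold at 10 CPM or more differed by 0.5 or more on the log2 scale.

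**Figure D5:**
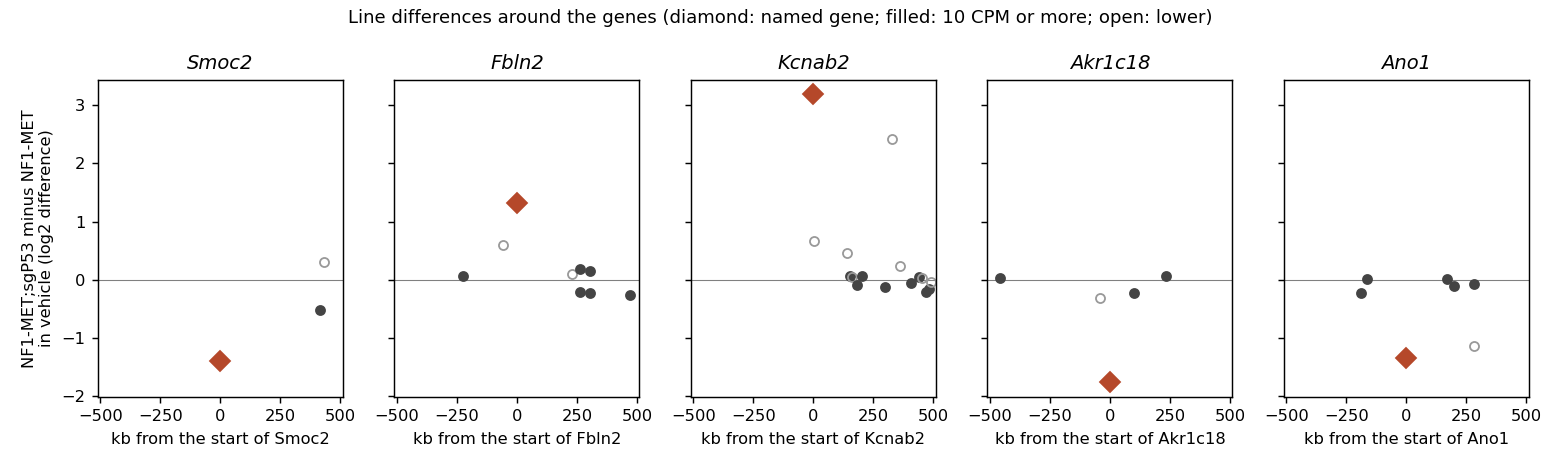
Log2 difference between sgP53 and NF1-MET cells in vehicle (vertical axis) for 5 of the 7 genes (diamonds) and for the 35 tested genes around them, by distance in kb from the start of the named gene (filled at 10 CPM or more, open below). Filled neighbors lie between -0.52 and 0.18, closer to 0 than the named genes.

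For each of the 7 genes, the 2 genes with the most similar profile over the 8 libraries were found by the Euclidean distance of log2 CPM after centering, among 9071 genes with at least 10 CPM in a group. This is a description, and all genes share the same libraries. The profiles also hold the line differences that chose the 7 genes. A likeness to *Trp53* or to a p53 target is therefore not independent of that choice. For *Smoc2* the nearest was *Trp53* itself, at a distance of 0.488, then *Sorcs2* at 0.551, where *Smoc2* spans 1.83 on the log2 scale. For *Nrn1* they were *Rgs16* (0.215), a regulator of G protein signaling, and *Ccng1* (0.245), a p53 target that encodes cyclin G1. *Ccng1* had 178 and 174 CPM in vehicle-treated and 145 and 143 CPM in capmatinib-treated NF1-MET cells. In sgP53 cells it had 75.8 and 79.4 CPM under vehicle and 81.6 and 86.2 CPM under capmatinib, which by TMM is the order of groups that *Nrn1* has. With library totals the response of *Ccng1* in sgP53 cells was -0.01 in place of 0.11, and the order no longer held. By Pearson correlation in place of distance the same pair was found for *Nrn1*, and none of the 12 other genes.

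For *Fbln2* the nearest were *Ifih1* (0.362), a sensor of double-stranded RNA, and *Ubr1* (0.365), and for *Map2* *Dtx3l* (0.179) and *Kank1* (0.324). *Ano1* was nearest to *Shisa6* (0.549) and *Pkp1* (0.636). *Akr1c18* was nearest to *Bmp2* (1.07), a growth factor of the bone morphogenetic protein family with 138 and 135 CPM in vehicle-treated and 8.42 and 7.73 CPM in capmatinib-treated NF1-MET cells, and to *Slc14a1* (1.27). *Kcnab2* had no close match, with *Nptx2* at 1.85 and *Itih2* at 2.08.

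The 30 known p53 targets, none of them among the 7 genes, were the group the selection left aside. Of 29 tested, 16 were lower and 3 higher in sgP53 cells under vehicle, and under capmatinib it was 10 and 2, beside 12.3% of all genes lower and 10.9% higher in vehicle and 6.34% and 5.94% in capmatinib. With library totals 11 were lower and 3 higher under vehicle, and 5 and 0 under capmatinib. Without *Gm42418* in the totals it was 12 and 3, then 9 and 2. DESeq2 gave 11 and 2, then 8 and 0. *Eda2r*, a death domain receptor of the TNF family, had log2 differences of -1.99 in vehicle (adjusted p = 1.11e-12) and -2.01 in capmatinib (adjusted p = 1.22e-08), and *Cdkn1a*, which encodes p21, -1.69 (adjusted p = 3.16e-16) and -1.95 (adjusted p = 1.39e-13). *Trp53inp1* had -1.87 in vehicle (adjusted p = 7.97e-11) and -0.42 in capmatinib, and *Ccng1* -1.20 (adjusted p = 5.07e-16) and -0.78. Beside these, the 4 genes of the 7 that were lower in vehicle had differences from -1.76 (*Akr1c18*) to -1.16 (*Nrn1*).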

How the data were processed

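Poly(A) RNA of both lines under vehicle or 100 nM capmatinib for 24 h was sequenced, 2 libraries per group. Per the study's methods and the submitters' processing notes, the authors used bcl2fastq 1.9.0, Trim Galore 0.4.2, FastQC 0.11.7 and STAR 2.5.2b on mm10. The deposited values are raw read counts per gene, without normalization. The annotation release and strand setting are not given in the sources used here.

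A gene was kept if 2 or more of the 8 libraries had 10 counts or more, and if 2 or more libraries of a comparison had counts above 0. The removed genes held 0.0396% of counts. edgeR 4.0.16 in R 4.3.3 gave TMM factors (0.898 to 1.1 over all libraries) within a comparison and quasi-likelihood F-tests in the original form, as in the study. P-values were adjusted by Benjamini-Hochberg across every gene tested, with 0.05 as the threshold. SE is the log2 difference over the root of F. DESeq2 1.42.0 was an alternative. Each test was tried on simulated counts in which 200 genes were changed and every gene had the same spread. There the share of false calls was under the threshold for the comparisons within a treatment or a line, and above it for the response to capmatinib over both lines. Small changes were missed more often within a line than over both. In the data far more genes passed and replicate noise differed between groups, so the simulation cannot give the share of false calls in the data.

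The 7 genes and the 14 lists were chosen with earlier results of these data known. Named are the 7 genes and *Trp53*, up to 4 called genes of a list with the largest line difference at 10 CPM or more, the 2 nearest genes by profile, and called neighbors within 500 kb with a difference of at least 0.5. *Fars2*, *Gm42418*, *Sparc*, *Nphp4*, *Mapt*, the cell type markers and genes near 0 were named after their values were seen. Replicate numbers did not pair the samples, with correlations of deviations from -0.0536 to 0.102. Replicates differed by more than sampling noise in every group. Positions come from GENCODE M21, in which 99.56% of identifiers were found. Promoters and motif matches use the RefSeq table of GRCm38.p6.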

Additional observations from a re-analysis of the deposited data

Results flagged for a closer look

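The level of *Nrn1* differed between capmatinib and vehicle in opposite directions in the lines. Both capmatinib libraries lay below both vehicle libraries in NF1-MET cells (110.7 and 110.6 against 134 and 125 CPM) and above them in NF1-MET;sgP53 cells (71.6 and 71.5 against 58.0 and 59.2 CPM). The response in NF1-MET;sgP53 minus that in NF1-MET was 0.528 on the log2 scale. With library totals in place of TMM the response was -0.43 in NF1-MET cells (adjusted p = 8.62e-13) and 0.16 in NF1-MET;sgP53 cells, where it no longer passed the threshold (adjusted p = 0.168, both from edgeR). The difference between the responses was not tested, since the line differences it is built from chose the gene. No group had enough libraries for a check of single outlying samples.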

How the results depend on the processing

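The 14 line differences of the 7 genes kept their sign under all 13 alternatives each, and 9 or 10 of them were at least 1 in size on the log2 scale (9 with library totals in place of TMM). Of their values under the alternatives, 39 moved by at least the SD of replicates and 143 did not. Of the mean levels of the 7 genes, 21 moved so with library totals and 7 did not. Library totals moved the median line difference of all genes in capmatinib to 0.11, and the median response to -0.15 over both lines. *Kcnab2* ranged from 3.09 to 3.33 in vehicle, *Akr1c18* from -1.43 to -1.07 in capmatinib, without NF1-MET;sgP53 capmatinib replicate 1 or replicate 2, and *Map2* from 0.26 to 0.35 in vehicle. The response of *Nrn1* over both lines became -0.138 with library totals (adjusted p = 0.0243 from edgeR). For *Kcnab2* in NF1-MET;sgP53 cells, library totals without *Gm42418* gave -0.18 (adjusted p = 0.0353). The other 5 genes kept every call of their responses. Of the counts of changed genes, that of the line difference in vehicle was 2023 with library totals (1280 higher and 743 lower, against 1580 and 1775 with TMM) and 1933 with DESeq2. In capmatinib it was 666 with library totals (537 higher and 129 lower, against 860 and 918), 870 with DESeq2 and 1070 without the filter. With *Gm42418* left out of the totals the counts were 3524 in vehicle (2065 higher and 1459 lower) and 1788 in capmatinib (965 and 823). The cause was not tested. Leaving out single libraries gave 2482 to 2852 in vehicle and 1079 to 1332 in capmatinib, with 1079 without NF1-MET capmatinib replicate 2. These fits also took in the libraries of the other treatment, and the like fit to all 8 libraries gave 3579 and 1884. The main counts of 3355 and 1778 came from the libraries of 1 treatment alone, and are not the like comparison. A fit without a single library leaves 1 library in a group, which is assumed to vary like the others. With the replicate block the counts were 3994 and 1777, and no call of the 7 genes changed. Of the neighbors, 25% passed in vehicle within 250 kb and 29.5% within 1000 kb. By Pearson correlation 2 of the 14 nearest genes were the same. Depth limits *Kcnab2* in NF1-MET cells (65 to 88 counts) and *Akr1c18* in NF1-MET;sgP53 cells with capmatinib (59 and 73 counts).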
